A study of Mus musculus with 16 samples.

Results

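NRF2 targets and antioxidant enzymes are a set of 39 genes that read out the oxidative stress programme of a cell. The rule for membership uses gene symbols, earlier results of these data were known when the set was drawn up, and a gene was kept if 4 or more libraries had it at 10 normalized counts or higher. All 39 members were found and passed, out of 14005 genes that passed among 27179 entries in the table. The smallest value of any member in any library was 41.9 normalized counts. The members are 3 regulators, 5 genes of glutathione supply, 5 of the thioredoxin and peroxiredoxin system, 6 oxidoreductases and related enzymes, 5 of NADPH supply, 4 of heme and iron handling, 5 glutathione transferases, 4 enzymes that remove peroxide or superoxide, and 2 export pumps.

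RNA was sequenced from PDGFRb+ stromal cells of inguinal white fat of C57BL/6 mice, sorted by flow cytometry and cultured in medium with 10% serum. They comprised a DPP4_pos and a DPP4_neg subpopulation of the cells that the labels call APCs, and DPP4 is a surface peptidase that marks interstitial progenitors of subcutaneous fat. Isoproterenol is a drug that activates beta-adrenergic receptors, the receptors through which sympathetic nerves act on fat. The 4 groups, with 4 libraries each, were DPP4_pos APCs with isoproterenol, DPP4_pos APCs with vehicle, DPP4_neg APCs with isoproterenol and DPP4_neg APCs with vehicle. Treatment lasted 4 h, the vehicle was PBS, and the labels give the dose of isoproterenol as 10 mM, a unit that could not be checked here. Allele, age and sex are not given in the labels, which also do not say whether the libraries of a group came from separate cultures or animals. What the p-values weigh is thus the scatter from library to library, and that scatter may be technical.

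Reads in genes ranged from 9823799 to 16563940 in DPP4_pos isoproterenol, 17189166 to 20425332 in DPP4_pos vehicle, 10191846 to 22121496 in DPP4_neg isoproterenol and 16479650 to 28627223 in DPP4_neg vehicle libraries. Dpp4 was at 2223 ± 97.7 normalized counts in DPP4_pos isoproterenol, 3053 ± 186 in DPP4_pos vehicle, 9.89 ± 2.29 in DPP4_neg isoproterenol and 21.1 ± 4.16 in DPP4_neg vehicle libraries (mean ± SD, n = 4), so the sort marker followed its labels. Pdgfrb, the receptor the sort was based on, averaged 2105 ± 163 in DPP4_pos isoproterenol, 7562 ± 367 in DPP4_pos vehicle, 9028 ± 396 in DPP4_neg isoproterenol and 11315 ± 149 in DPP4_neg vehicle libraries. Beta-adrenergic receptors act through cAMP, and all 12 genes of a list of cAMP-responsive genes rose with isoproterenol in both populations, with a median log2 change of 4.96 in DPP4_pos and 3.73 in DPP4_neg APCs. Of all tested genes, 39.4% rose with isoproterenol in DPP4_pos and 32.1% in DPP4_neg APCs. The summed level of 20 interferon-stimulated genes ran from 12347 to 19514 in DPP4_pos isoproterenol, 14885 to 37908 in DPP4_pos vehicle, 7752 to 13826 in DPP4_neg isoproterenol and 4065 to 4684 in DPP4_neg vehicle libraries, with replicate 1 of DPP4_pos vehicle the highest of all.

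NRF2, the product of Nfe2l2, is a transcription factor that is held low in resting cells because KEAP1 hands it to a cullin-3 ubiquitin ligase for degradation. Oxidants and electrophiles modify cysteines of KEAP1, NRF2 then escapes, pairs with a small MAF protein and binds antioxidant response elements. Its targets supply glutathione, thioredoxin and NADPH, detoxify quinones and lipid aldehydes, and store iron released from heme. In fat progenitors this programme is known for its ties to adipogenesis and to the oxidative load of thermogenic tissue. Since NRF2 is set largely by protein stability, the RNA of Nfe2l2 and the RNA of its targets are different readouts, and the libraries measure RNA alone.

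The start-site windows of the members with the largest isoproterenol responses are shown as a description of their sequence. RefSeq (GRCm38.p6) gave windows of 300 bases, 250 before and 50 from the start site on, for 33 of the 39 members, 45 windows in all. Of the first 6 members by response, Slc7a11, Srxn1, Ugdh and Txnrd1 have such windows, and the start sites of the Slc7a11 and Txnrd1 windows shown lie inside the annotated spans of these genes. Capitals mark matches of the core of the antioxidant response element, spelled TGACNNNGC, on either strand, and sequences run 5′ to 3′ along the gene's strand.
Slc7a11, chr3:50443564-50443863, minus strand: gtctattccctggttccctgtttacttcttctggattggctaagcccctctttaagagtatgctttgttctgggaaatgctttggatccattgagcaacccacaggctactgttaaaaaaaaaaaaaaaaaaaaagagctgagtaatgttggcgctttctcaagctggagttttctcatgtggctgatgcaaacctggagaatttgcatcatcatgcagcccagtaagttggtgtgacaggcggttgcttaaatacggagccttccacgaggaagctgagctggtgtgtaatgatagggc
Srxn1, chr2:152105274-152105573, plus strand: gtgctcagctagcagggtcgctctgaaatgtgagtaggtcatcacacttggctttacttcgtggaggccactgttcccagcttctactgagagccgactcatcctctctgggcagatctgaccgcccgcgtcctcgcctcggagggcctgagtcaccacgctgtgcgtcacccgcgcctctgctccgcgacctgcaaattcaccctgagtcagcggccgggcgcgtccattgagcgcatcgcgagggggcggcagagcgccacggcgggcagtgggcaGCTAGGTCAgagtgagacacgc
Ugdh, chr5:65435793-65436092, minus strand: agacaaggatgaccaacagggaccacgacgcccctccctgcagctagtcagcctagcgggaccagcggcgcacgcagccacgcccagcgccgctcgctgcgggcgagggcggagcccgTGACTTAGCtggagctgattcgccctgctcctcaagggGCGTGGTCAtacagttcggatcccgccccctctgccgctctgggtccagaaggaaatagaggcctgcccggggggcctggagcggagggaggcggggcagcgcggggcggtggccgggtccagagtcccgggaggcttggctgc
Txnrd1, chr10:82858956-82859255, plus strand: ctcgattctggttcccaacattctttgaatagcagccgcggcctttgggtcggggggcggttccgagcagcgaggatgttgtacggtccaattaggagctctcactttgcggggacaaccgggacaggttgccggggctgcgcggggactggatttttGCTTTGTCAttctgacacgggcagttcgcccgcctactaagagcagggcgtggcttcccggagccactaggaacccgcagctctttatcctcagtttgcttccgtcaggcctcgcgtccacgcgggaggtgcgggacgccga
The Srxn1 window held 1 match on the opposite strand, beginning at position 29, and the Ugdh window held 2, at positions -132 and -94. The Txnrd1 window held 1 at position -92, and the other 2 windows of Txnrd1 held none. No match stood in the Slc7a11 window. Positions count from 1 at the start site, and bases before it are negative. Over the members, 13 of 45 windows (28.9%) held the core, in 12 of the 33 members, against 12.4% of all 32851 mouse windows of the same length. These 12 were Abcc4, G6pdx, Gclm, Me1, Mgst1, Nfe2l2, Pgd, Prdx1, Sod1, Srxn1, Txnrd1 and Ugdh. The members were chosen by name as NRF2 targets and antioxidant genes, so a higher share of the core can follow from that choice. The windows were not compared by size of response. The full cAMP response element, TGACGTCA, was in 0 of the 45 windows and in 1.79% of all windows. Its partial form, TGACG, which can also lie within the antioxidant core, was in 9 member windows (20.0%, against 20.8% of all), and the AP-1 site, TGANTCA, in 6 (13.3%, against 7.81%). An AP-1 site can overlap an antioxidant element, and spellings of the core other than the one given were not counted. All motifs were searched on both strands. A match describes letters in a window and is not evidence that a factor binds there.

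Most of the set rose with isoproterenol in both populations. In DPP4_pos APCs 30 of 39 members were higher and 5 lower, where 39.4% of all 14005 tested genes were higher and 43.3% lower, 82.7% in all. In DPP4_neg APCs 32 members were higher and 2 lower, where 32.1% of all genes were higher and 33.6% lower, 65.7% in all. A call is an adjusted p under 0.05 over all tested genes in limma on log2(normalized count + 1), and changes below are given on that scale as log2 change ± SE. The median log2 change of the members was 1.45 in DPP4_pos APCs, beside -0.054 over all tested genes, and 0.74 in DPP4_neg APCs, beside -0.020. A change of at least 2-fold was called upward for 21 members (11.5% of all genes) and downward for 1, Aox1 (19.2% of all genes), in DPP4_pos APCs, and upward for 17 (6.27% of all genes) and downward for 0 (8.99% of all genes) in DPP4_neg APCs. The isoproterenol and vehicle libraries did not overlap for 33 members in DPP4_pos APCs (77.8% of all genes), with isoproterenol above for 28 (37.5% of all genes). In DPP4_neg APCs they did not overlap for 32 members (58.9% of all genes), with isoproterenol above for 30 (28.2% of all genes). With quantile normalization in place of the deposited size factors the DPP4_pos split became 27 higher and 10 lower, with a median of 1.08. The DPP4_neg split became 30 higher and 3 lower, with a median of 0.78.

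The RNA of the 39 genes together made up 2.14% ± 0.0959 of all normalized counts in DPP4_pos isoproterenol libraries, against 0.859% ± 0.0114 in DPP4_pos vehicle libraries (SD, n = 4). In DPP4_neg APCs the set held 1.38% ± 0.0629 with isoproterenol, against 0.660% ± 0.0086 with vehicle. Without the ferritin genes Fth1 and Ftl1, the shares were 1.78% ± 0.0789 in DPP4_pos isoproterenol, 0.557% ± 0.0066 in DPP4_pos vehicle, 1.08% ± 0.0424 in DPP4_neg isoproterenol and 0.503% ± 0.0077 in DPP4_neg vehicle libraries. Levels per kilobase of annotated exon used the exons of all annotated transcripts of a gene together. On that scale Srxn1 had the highest mean level of the set in DPP4_pos isoproterenol libraries, at 15368 normalized counts. Fth1 followed at 14186 and Ftl1 at 12884. In DPP4_pos vehicle libraries Fth1 was highest at 11332, and Srxn1 stood at 508. In DPP4_neg isoproterenol libraries Ftl1 was highest at 13956, and in DPP4_neg vehicle libraries Txn1 was highest at 5789. Slc7a11 had the lowest level per kilobase in both vehicle groups, at 6.12 in DPP4_pos and 14.5 in DPP4_neg libraries, a value that depends on its long annotated exons. The order of the other genes also depends on this length, which can exceed that of a single transcript. It was 2820 bases for Srxn1, 3469 for Fth1 and 1051 for Txn1. Before this division, mean normalized counts in DPP4_pos isoproterenol libraries were 49210 for Fth1 and 43338 for Srxn1. Because these are bulk samples, a lower count can come from fewer cells of a type or from less RNA per cell, and the 2 cannot be told apart.

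**Figure D1:**
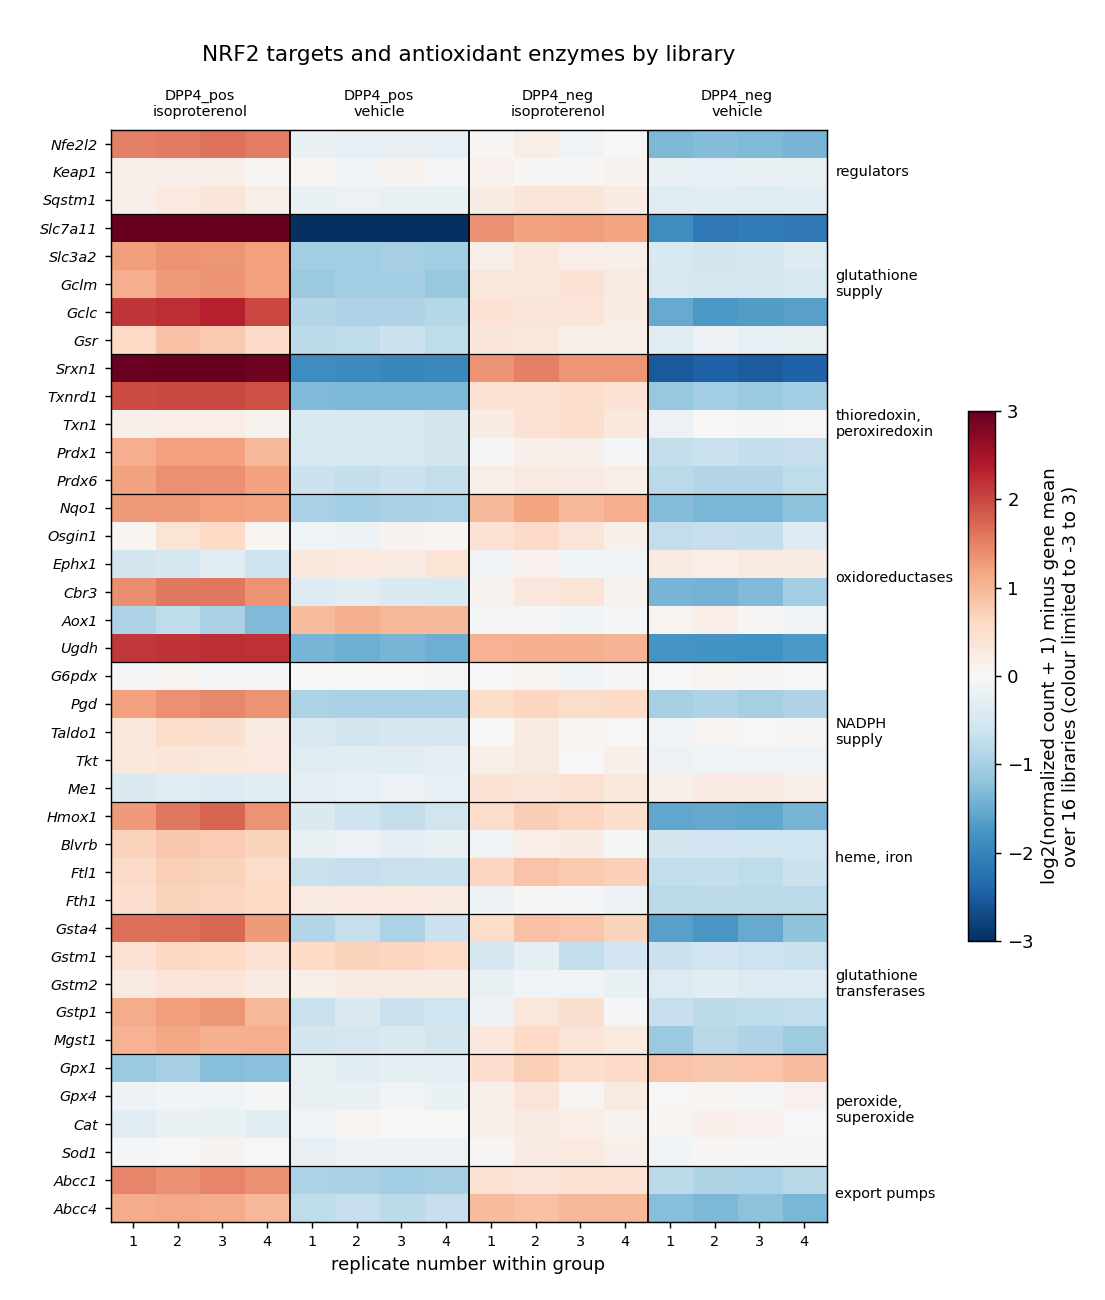
Level of each of the 39 members (rows, grouped by role) in each of the 16 libraries (columns, by group and replicate), as log2(normalized count + 1) minus the gene's mean over all libraries, with colours limited to -3 to 3. Most rows are red in both isoproterenol groups and blue in both vehicle groups, the deepest being Slc7a11 and Srxn1, while Gpx1 and Aox1 run against this pattern.

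Among the regulators, Nfe2l2 itself rose with isoproterenol in both populations, and its level was higher in DPP4_pos than in DPP4_neg APCs under either treatment. Nfe2l2 (chromosome 2, 75675513 to 75704663, minus strand) had 11815, 12375, 12809 and 12008 normalized counts in DPP4_pos isoproterenol libraries, against 3644, 3513, 3501 and 3519 in DPP4_pos vehicle libraries. In DPP4_neg APCs, Nfe2l2 had 4301, 4708, 3906 and 4116 with isoproterenol, against 1644, 1688, 1666 and 1590.1 with vehicle. No library of 1 treatment reached the range of the other, and even the highest DPP4_neg isoproterenol library stayed below the lowest DPP4_pos isoproterenol library. The log2 change was 1.79 ± 0.04 (3.46-fold, adjusted p = 1.12e-19) in DPP4_pos and 1.37 ± 0.04 (2.58-fold, adjusted p = 3.2e-17) in DPP4_neg APCs. DPP4_pos exceeded DPP4_neg APCs by 1.53 ± 0.04 under isoproterenol and by 1.11 ± 0.04 under vehicle. The response was larger in DPP4_pos APCs by 0.42 ± 0.06 (adjusted p = 4.38e-06), a difference that shrank to 0.025 (adjusted p = 0.741) with quantile normalization.

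Keap1, the substrate adaptor that marks NRF2 for destruction, moved little. Keap1 (chromosome 9, 21229730 to 21239332, minus strand) had 942, 941, 932 and 876 normalized counts in DPP4_pos isoproterenol libraries, against 897, 796, 912 and 817 in DPP4_pos vehicle libraries, and these ranges overlapped. In DPP4_neg APCs, Keap1 had 919, 862, 866 and 903 with isoproterenol, against 719, 706, 737 and 717 with vehicle, with no overlap. Its log2 change was 0.11 ± 0.05 in DPP4_pos APCs (adjusted p = 0.0318) and 0.30 ± 0.05 in DPP4_neg APCs (adjusted p = 6.26e-06). The call in DPP4_pos APCs ended with TMM scaling (0.066, adjusted p = 0.186), in edgeR (0.069, adjusted p = 0.184) and when replicate 1, 2 or 3 of the DPP4_pos isoproterenol group or replicate 2 or 4 of the DPP4_pos vehicle group was left out (0.077 to 0.105). The DPP4_pos sign turned with quantile normalization (-0.054). Keap1 shares 10.9% of its exon bases with the antisense gene Gm16754, and whether reads there were separated by strand is not known.

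Sqstm1 encodes p62, an autophagy receptor that binds KEAP1 and is itself an NRF2 target. Sqstm1 (chromosome 11, 50200152 to 50210820, minus strand) had 8462, 9377, 9752 and 8616 normalized counts in DPP4_pos isoproterenol libraries, against 6522, 6689, 6541 and 6634 in DPP4_pos vehicle libraries. In DPP4_neg APCs, Sqstm1 had 8878, 9775, 9720.0 and 9087 with isoproterenol, against 5909.6, 6096, 5953 and 6081 with vehicle. All isoproterenol libraries lay above all vehicle libraries of their population, with log2 changes of 0.45 ± 0.04 in DPP4_pos and 0.64 ± 0.04 in DPP4_neg APCs (-0.047 in DPP4_pos APCs with quantile normalization, a change of sign). Sqstm1 shares 17.3% of its exon bases with Mrnip on the opposite strand, and whether reads there were separated by strand is not known.

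All 5 genes of glutathione supply rose in both populations, each more in DPP4_pos than in DPP4_neg APCs, and 4 of the 5 were lower in DPP4_pos than in DPP4_neg APCs under vehicle. Of all tested genes, 39.4% rose in DPP4_pos and 32.1% in DPP4_neg APCs. The response was more positive in DPP4_pos APCs for 31.6% of all genes, and 35.0% were lower there under vehicle. Slc7a11 encodes xCT, the exchanger that brings in cystine for glutathione synthesis, and had the largest response of the set. Slc7a11 (chromosome 3, 50364936 to 50499087, minus strand) had 14118, 14649, 16544 and 13120.1 normalized counts in DPP4_pos isoproterenol libraries, against 94.1, 76.5, 86.8 and 83.6 in DPP4_pos vehicle libraries. In DPP4_neg APCs, Slc7a11 had 2193, 1949, 2009.6 and 1928 with isoproterenol, against 231, 192, 196 and 190.1 with vehicle. The order of the populations was opposite under the 2 treatments, with every DPP4_pos isoproterenol library above every DPP4_neg isoproterenol library and every DPP4_pos vehicle library below every DPP4_neg vehicle library. The log2 change was 7.40 ± 0.07 (169-fold, adjusted p = 1.79e-26) in DPP4_pos and 3.32 ± 0.07 (9.96-fold, adjusted p = 4.28e-20) in DPP4_neg APCs. The responses differed by 4.09 ± 0.10 (adjusted p = 7.88e-18). DPP4_pos minus DPP4_neg was 2.85 ± 0.07 under isoproterenol and -1.24 ± 0.07 under vehicle. Its start-site window carries no match of the element core.

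Slc3a2 encodes the heavy chain (CD98hc) that carries xCT and other amino acid transporters to the cell surface. Slc3a2 (chromosome 19, 8706882 to 8723369, minus strand) had 7954, 8556, 8369 and 7766 normalized counts in DPP4_pos isoproterenol libraries, against 1620.4, 1616, 1668 and 1619 in DPP4_pos vehicle libraries. In DPP4_neg APCs, Slc3a2 had 3753, 4241, 3825 and 3780.2 with isoproterenol, against 2417, 2266, 2371 and 2506 with vehicle. As with Slc7a11, the DPP4_pos libraries were the highest with isoproterenol and the lowest with vehicle. Slc3a2 rose by 2.32 ± 0.04 (4.999-fold) in DPP4_pos and by 0.71 ± 0.04 (1.63-fold) in DPP4_neg APCs, and the responses differed by 1.62 ± 0.06 (adjusted p = 1.87e-15).

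Glutamate-cysteine ligase, the rate-limiting enzyme of glutathione synthesis, has a catalytic subunit, Gclc, and a modifier subunit, Gclm. Gclc (chromosome 9, 77754535 to 77794489, plus strand) had 7889, 8284, 8968 and 7137 normalized counts in DPP4_pos isoproterenol libraries, against 977, 942, 943 and 993 in DPP4_pos vehicle libraries. In DPP4_neg APCs, Gclc had 2403, 2306, 2344 and 2067 with isoproterenol, against 626, 542, 553 and 572 with vehicle. Unlike the other genes of the group, Gclc was higher in DPP4_pos than in DPP4_neg APCs under both treatments, by 1.82 ± 0.06 with isoproterenol and 0.75 ± 0.06 with vehicle. Its log2 change was 3.06 ± 0.06 (8.34-fold, adjusted p = 2.01e-21) in DPP4_pos and 1.99 ± 0.06 (3.97-fold, adjusted p = 8.86e-18) in DPP4_neg APCs. Gclm (chromosome 3, 122245487 to 122267215, plus strand) had 3998, 4526, 4779 and 4356 normalized counts in DPP4_pos isoproterenol libraries, against 862, 904, 913 and 848 in DPP4_pos vehicle libraries. In DPP4_neg APCs, Gclm had 2366, 2309.7, 2506 and 2258 with isoproterenol, against 1334, 1288, 1313 and 1336 with vehicle. The modifier subunit thus rose by 2.32 ± 0.05 in DPP4_pos and 0.84 ± 0.05 in DPP4_neg APCs, and it was higher in DPP4_pos than in DPP4_neg APCs under isoproterenol (0.90 ± 0.05) and lower under vehicle (-0.58 ± 0.05). Gsr, glutathione reductase, which returns oxidized glutathione to its reduced form, averaged 1461 ± 145 normalized counts in DPP4_pos isoproterenol, 533 ± 23.8 in DPP4_pos vehicle, 1069 ± 70.7 in DPP4_neg isoproterenol and 752 ± 36.1 in DPP4_neg vehicle libraries. Its log2 changes were 1.45 ± 0.06 in DPP4_pos and 0.51 ± 0.06 in DPP4_neg APCs.

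**Figure D2:**
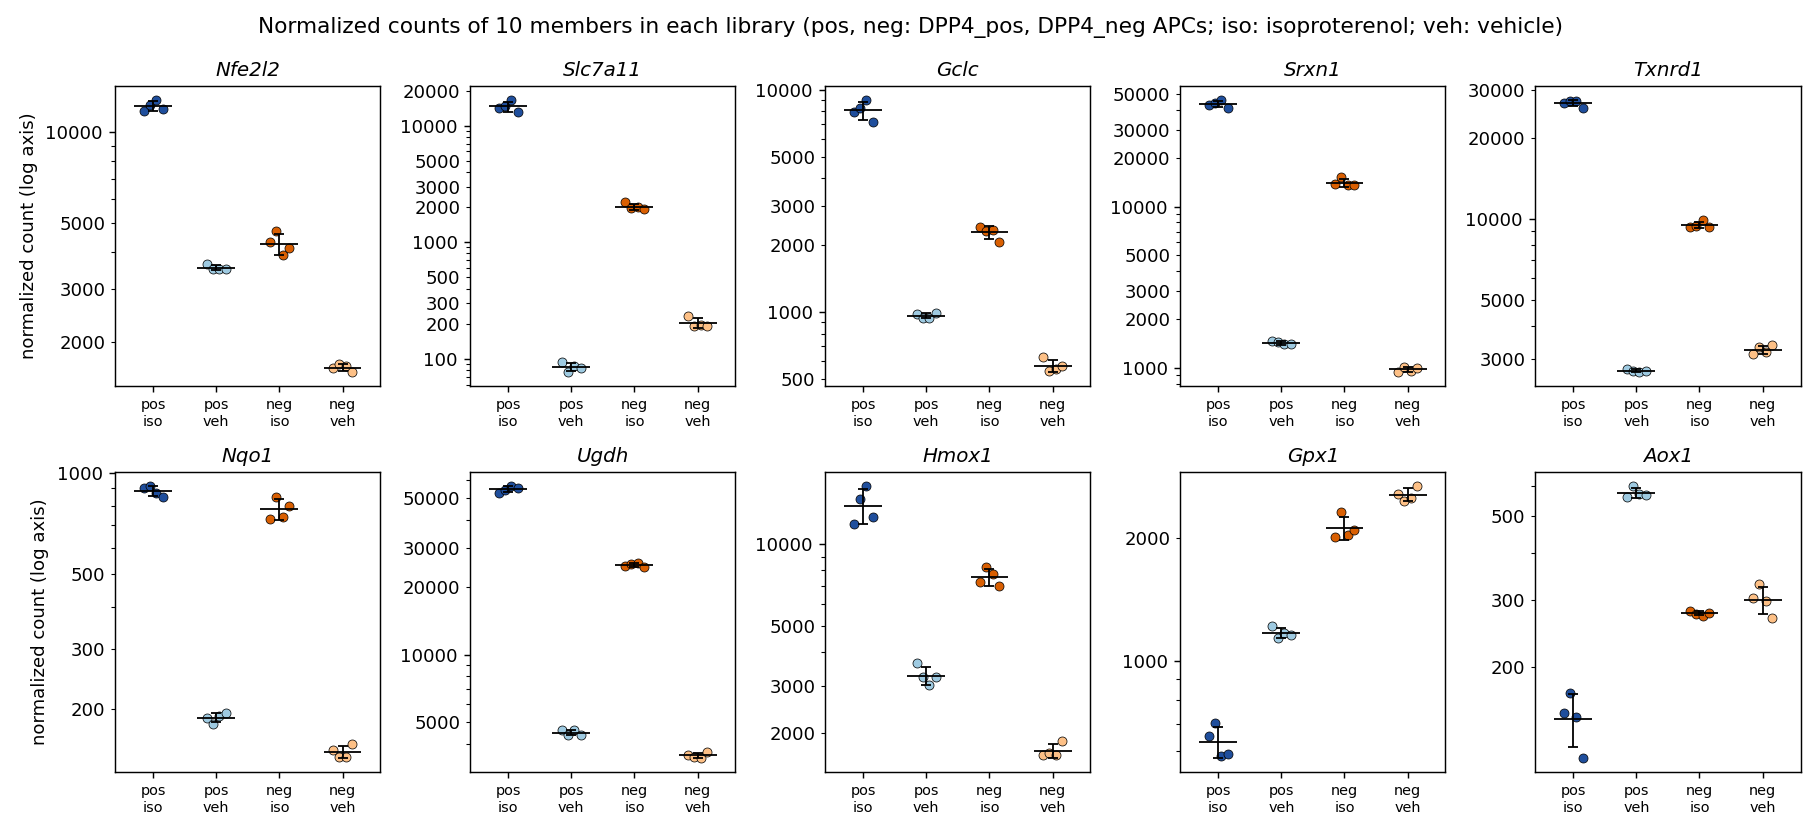
Normalized counts (log axis, different scale in each panel) of 10 members in each library, with points for libraries, horizontal lines for group means and bars for SD (n = 4 per group). Slc7a11 has the DPP4_pos groups as both the highest and the lowest, Hmox1 and Nqo1 rise in both populations, and Aox1 and Gpx1 are lowest in DPP4_pos isoproterenol libraries.

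All 5 genes of the thioredoxin and peroxiredoxin system rose in both populations, where 39.4% of all tested genes rose in DPP4_pos and 32.1% in DPP4_neg APCs. Srxn1, sulfiredoxin, repairs peroxiredoxins that peroxide has over-oxidized, and had the largest response of the set in DPP4_neg APCs. Srxn1 (chromosome 2, 152105524 to 152111376, plus strand) had 42556, 43842, 45801 and 41153 normalized counts in DPP4_pos isoproterenol libraries, against 1479.7, 1448, 1399 and 1407 in DPP4_pos vehicle libraries. In DPP4_neg APCs, Srxn1 had 13794, 15334, 13634 and 13540.5 with isoproterenol, against 942, 1009.6, 962 and 1005 with vehicle. The lowest isoproterenol library of either population stood several-fold above the highest vehicle library. The log2 change was 4.92 ± 0.04 (30.2-fold, adjusted p = 2.81e-27) in DPP4_pos and 3.84 ± 0.04 (14.3-fold, adjusted p = 2.32e-25) in DPP4_neg APCs, a difference of 1.07 ± 0.06 (adjusted p = 1.15e-12).

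Txnrd1 encodes the cytosolic thioredoxin reductase, a selenoprotein that keeps thioredoxin reduced at the cost of NADPH. Txnrd1 (chromosome 10, 82833951 to 82897724, plus strand) had 26758, 27351, 27338 and 25795 normalized counts in DPP4_pos isoproterenol libraries, against 2768, 2724, 2686 and 2714 in DPP4_pos vehicle libraries. In DPP4_neg APCs, Txnrd1 had 9332, 9369.5, 9848 and 9332 with isoproterenol, against 3140.1, 3329.8, 3179.9 and 3378 with vehicle. The 4 groups did not overlap, and DPP4_pos APCs were again the highest with isoproterenol and the lowest with vehicle. Txnrd1 rose by 3.30 ± 0.03 (9.84-fold) in DPP4_pos and by 1.54 ± 0.03 (2.91-fold) in DPP4_neg APCs, and the responses differed by 1.76 ± 0.05 (adjusted p = 1.01e-17). Its electron acceptor Txn1, thioredoxin, rose by 0.65 ± 0.05 in DPP4_pos and 0.44 ± 0.05 in DPP4_neg APCs. Txn1 was lower in DPP4_pos than in DPP4_neg APCs under both treatments, by 0.22 ± 0.05 with isoproterenol and 0.43 ± 0.05 with vehicle. The peroxiredoxins Prdx1, which reduces peroxide with thioredoxin, and Prdx6, which uses glutathione, rose by 1.63 ± 0.05 and 1.97 ± 0.04 in DPP4_pos APCs. In DPP4_neg APCs they rose by 0.74 ± 0.05 and 1.05 ± 0.04. Other loci share 8.81% of the 50-base stretches of Prdx1.

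Of the 6 oxidoreductases and related enzymes, Nqo1, Osgin1, Cbr3 and Ugdh were higher with isoproterenol in both populations and Ephx1 was lower in both, while Aox1 was lower in DPP4_pos APCs alone by the calls. Nqo1, a quinone reductase used widely as a readout of NRF2, rose in both populations. Nqo1 (chromosome 8, 107388225 to 107403205, minus strand) had 904, 911, 874 and 849 normalized counts in DPP4_pos isoproterenol libraries, against 188, 181, 190.4 and 194 in DPP4_pos vehicle libraries. In DPP4_neg APCs, Nqo1 had 729, 849, 741 and 797 with isoproterenol, against 151, 144, 144 and 158 with vehicle. The log2 change was 2.23 ± 0.06 (4.68-fold, adjusted p = 2.26e-19) in DPP4_pos and 2.37 ± 0.06 (5.18-fold, adjusted p = 1.77e-19) in DPP4_neg APCs. The difference of the responses was -0.15 ± 0.08 (95% interval -0.31 to 0.018, adjusted p = 0.113), and it passed the threshold with TMM scaling (-0.20, adjusted p = 0.0356), with quantile normalization (-0.25, adjusted p = 0.012) and in edgeR (-0.20, adjusted p = 0.0414).

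Ugdh, UDP-glucose dehydrogenase, makes the UDP-glucuronic acid used for glucuronidation and for hyaluronan and proteoglycans. Ugdh (chromosome 5, 65413207 to 65435842, minus strand) had 52602, 54231, 56419 and 55214 normalized counts in DPP4_pos isoproterenol libraries, against 4611, 4378, 4616 and 4394 in DPP4_pos vehicle libraries. In DPP4_neg APCs, Ugdh had 24862, 25283, 25578 and 24567 with isoproterenol, against 3564, 3500.2, 3471 and 3688 with vehicle. The groups lay far apart, with log2 changes of 3.601 ± 0.03 (12.1-fold, adjusted p = 5.15e-27) in DPP4_pos and 2.82 ± 0.03 (7.05-fold, adjusted p = 5.89e-25) in DPP4_neg APCs. Cbr3, a carbonyl reductase, averaged 1419.9 ± 120.4 normalized counts in DPP4_pos isoproterenol, 383 ± 15.6 in DPP4_pos vehicle, 599 ± 62.7 in DPP4_neg isoproterenol and 207 ± 26.4 in DPP4_neg vehicle libraries. It rose by 1.88 ± 0.08 in DPP4_pos and 1.53 ± 0.08 in DPP4_neg APCs. Osgin1, an oxidative stress response gene that restrains growth, rose by 0.32 ± 0.13 in DPP4_pos APCs and by 1.02 ± 0.13 in DPP4_neg APCs. The call in DPP4_pos APCs (adjusted p = 0.0289) ended with TMM scaling (0.27, adjusted p = 0.0563) and when replicate 2 or 3 of the DPP4_pos isoproterenol group or replicate 1 or 2 of the DPP4_pos vehicle group was left out (0.21 to 0.28).

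Aox1, an aldehyde oxidase that carries molybdenum and can itself produce superoxide, had the largest fall of the set in DPP4_pos APCs. Aox1 (chromosome 1, 58029809 to 58106410, plus strand) had 151, 171, 148 and 115 normalized counts in DPP4_pos isoproterenol libraries, against 562, 601, 572 and 569 in DPP4_pos vehicle libraries. In DPP4_neg APCs, Aox1 had 281, 275, 273 and 278 with isoproterenol, against 303, 331, 298 and 270.0 with vehicle, with overlapping ranges. The log2 change was -1.99 ± 0.09 (3.97-fold lower, adjusted p = 3.96e-15) in DPP4_pos APCs and -0.11 ± 0.09 (95% interval -0.30 to 0.068, adjusted p = 0.26) in DPP4_neg APCs, and the responses differed by -1.87 ± 0.12 (adjusted p = 2.69e-11). Ephx1, microsomal epoxide hydrolase, averaged 1627 ± 154 normalized counts in DPP4_pos isoproterenol, 2883 ± 142 in DPP4_pos vehicle, 2229 ± 182 in DPP4_neg isoproterenol and 2706 ± 71.0 in DPP4_neg vehicle libraries. It fell by 0.83 ± 0.06 in DPP4_pos and by 0.28 ± 0.06 in DPP4_neg APCs.

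The genes of NADPH supply did not move as a block. Pgd, 6-phosphogluconate dehydrogenase, the second NADPH-producing step of the pentose phosphate pathway, rose strongly. G6pdx, the enzyme of the first NADPH-producing step, did not pass in any comparison. Pgd (chromosome 4, 149149991 to 149166705, minus strand) had 19070.3, 21046, 21932 and 20836 normalized counts in DPP4_pos isoproterenol libraries, against 4219, 4156, 4159.9 and 4146 in DPP4_pos vehicle libraries. In DPP4_neg APCs, Pgd had 11866, 12799, 11898 and 12027 with isoproterenol, against 4045, 4256, 4065 and 4255 with vehicle. The vehicle groups overlapped and the isoproterenol groups did not, and the log2 change was 2.31 ± 0.04 (4.96-fold) in DPP4_pos and 1.55 ± 0.04 (2.92-fold) in DPP4_neg APCs. G6pdx, by contrast, averaged 4471 ± 188 normalized counts in DPP4_pos isoproterenol, 4491 ± 64.0 in DPP4_pos vehicle, 4543 ± 222 in DPP4_neg isoproterenol and 4665 ± 97.5 in DPP4_neg vehicle libraries. Its log2 change was -0.007 (95% interval -0.083 to 0.069) in DPP4_pos and -0.040 (95% interval -0.12 to 0.036) in DPP4_neg APCs. With quantile normalization it was lower with isoproterenol in both, at -0.43 in DPP4_pos and -0.13 in DPP4_neg APCs, and 13.6% of its exon bases overlap Ikbkg on the opposite strand.

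Taldo1 and Tkt, transaldolase and transketolase of the non-oxidative branch, rose in DPP4_pos APCs by 0.90 ± 0.06 and 0.64 ± 0.04. In DPP4_neg APCs, Tkt rose by 0.28 ± 0.04 and Taldo1 had 0.085 (95% interval -0.041 to 0.21, adjusted p = 0.226). Me1, the cytosolic malic enzyme, which also feeds NADPH to fat synthesis, was the single member called in opposite directions, at -0.14 ± 0.04 in DPP4_pos and 0.20 ± 0.04 in DPP4_neg APCs. Its normalized counts ran 1377 to 1465 in DPP4_pos isoproterenol, 1528 to 1639 in DPP4_pos vehicle, 2323 to 2549 in DPP4_neg isoproterenol and 2085 to 2186 in DPP4_neg vehicle libraries. Other loci share 28.3% of the 50-base stretches of Me1 and 6.67% of those of Taldo1, which makes their counts uncertain.

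All 4 genes of heme and iron handling rose in both populations. Hmox1, heme oxygenase, opens the heme ring and frees its iron, and is induced by NRF2 when BACH1 leaves its enhancers. Hmox1 (chromosome 8, 75093618 to 75100593, plus strand) had 11909.8, 14650.5, 16378 and 12579 normalized counts in DPP4_pos isoproterenol libraries, against 3626, 3219, 3013 and 3229.8 in DPP4_pos vehicle libraries. In DPP4_neg APCs, Hmox1 had 7261, 8257, 7725 and 6988 with isoproterenol, against 1666, 1693, 1662 and 1881 with vehicle. Its responses were close, at 2.08 ± 0.08 (4.22-fold, adjusted p = 2.04e-16) in DPP4_pos and 2.13 ± 0.08 (4.37-fold, adjusted p = 3.07e-16) in DPP4_neg APCs. Their difference was -0.053 ± 0.11 (95% interval -0.28 to 0.17, adjusted p = 0.691), but -0.38 (adjusted p = 0.00659) with quantile normalization. DPP4_pos exceeded DPP4_neg APCs in Hmox1 by 0.87 ± 0.08 with isoproterenol and 0.92 ± 0.08 with vehicle. Macrophages are rich in Hmox1, and the sum of 15 macrophage and leukocyte markers was 706 to 1962 in DPP4_pos isoproterenol, 632 to 1489 in DPP4_pos vehicle, 748 to 2065 in DPP4_neg isoproterenol and 469.7 to 1099.5 in DPP4_neg vehicle libraries. Of the 13 markers tested, 2 rose with isoproterenol in DPP4_pos APCs (Csf1r and Cd14), where 39.4% of all genes did. In DPP4_neg APCs 3 rose (Csf1r, Cd14 and Fcer1g), where 32.1% of all genes did. Ptprc, C1qa and C1qb were at 0 in replicate 1 of DPP4_neg isoproterenol, where Csf1r was at 566 and the whole list summed to 748. The part of these markers in the Hmox1 change was not tested.

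Blvrb, biliverdin reductase B, rose by 0.96 ± 0.06 in DPP4_pos and 0.65 ± 0.06 in DPP4_neg APCs. Fth1 and Ftl1 encode the heavy and light chains of ferritin, the iron store. Fth1 (chromosome 19, 9980600 to 9985111, plus strand) had 46126, 51351, 50683 and 48679 normalized counts in DPP4_pos isoproterenol libraries, against 39076, 39699.5, 39744 and 38722 in DPP4_pos vehicle libraries. In DPP4_neg APCs, Fth1 had 28405, 33268, 31591 and 29001 with isoproterenol, against 18419.6, 18597, 18558 and 18358 with vehicle. Every DPP4_pos library exceeded every DPP4_neg library, by 0.69 ± 0.04 between the isoproterenol groups and 1.09 ± 0.04 between the vehicle groups. The isoproterenol change was 0.32 ± 0.04 in DPP4_pos and 0.72 ± 0.04 in DPP4_neg APCs, so that here the response was smaller in DPP4_pos APCs, by 0.40 ± 0.06 (adjusted p = 1.15e-05). The light chain gene Ftl1 changed by 1.31 ± 0.04 in DPP4_pos and 1.46 ± 0.04 in DPP4_neg APCs, and its counts are uncertain because other loci, among them Ftl1-ps1, share 58.4% of its 50-base stretches.

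Among the glutathione transferases, Gsta4, Gstp1 and Mgst1 rose in both populations and Gstm2 in DPP4_neg APCs, while Gstm1 passed in neither. Gsta4 conjugates 4-hydroxynonenal and related aldehydes of lipid peroxidation. Gsta4 (chromosome 9, 78191966 to 78209349, plus strand) had 453, 456, 479 and 351 normalized counts in DPP4_pos isoproterenol libraries, against 77.1, 89.2, 74.4 and 92.1 in DPP4_pos vehicle libraries. In DPP4_neg APCs, Gsta4 had 209.7, 266, 257 and 227 with isoproterenol, against 45.8, 41.9, 49.3 and 61.6 with vehicle. It rose by 2.37 ± 0.12 (5.16-fold, adjusted p = 5.83e-14) in DPP4_pos and 2.26 ± 0.12 (4.79-fold, adjusted p = 3.33e-13) in DPP4_neg APCs, with a difference of 0.11 ± 0.17 (95% interval -0.25 to 0.47). Mgst1, a membrane-bound transferase with peroxidase activity, rose by 1.597 ± 0.06 in DPP4_pos and 1.38 ± 0.06 in DPP4_neg APCs. Gstp1 rose by 1.76 ± 0.10 in DPP4_pos and 0.91 ± 0.10 in DPP4_neg APCs, and its counts are uncertain because Gstp2 holds 33.7% of its 50-base stretches.

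Gstm1, a mu-class transferase, showed the largest difference of the set between the vehicle groups. Gstm1 (chromosome 3, 108012250 to 108017973, minus strand) had 2185, 2489.7, 2477 and 2184 normalized counts in DPP4_pos isoproterenol libraries, against 2463, 2635, 2544 and 2476 in DPP4_pos vehicle libraries. In DPP4_neg APCs, Gstm1 had 1139, 1360.4, 981 and 1089 with isoproterenol, against 1039, 1088, 1061 and 1026 with vehicle. Populations separated and treatments did not: DPP4_pos exceeded DPP4_neg APCs by 1.04 ± 0.07 (2.05-fold, adjusted p = 8.45e-12) with isoproterenol and 1.26 ± 0.07 (2.40-fold, adjusted p = 3.25e-13) with vehicle. The isoproterenol change was -0.12 (95% interval -0.26 to 0.023) in DPP4_pos and 0.11 (95% interval -0.034 to 0.25) in DPP4_neg APCs. With TMM scaling, in edgeR and with quantile normalization the DPP4_pos change passed, at -0.16, -0.16 and -0.44. Its relative Gstm2 had 0.083 (95% interval -0.003 to 0.17, adjusted p = 0.0699; -0.25 with quantile normalization) in DPP4_pos and rose by 0.21 ± 0.04 in DPP4_neg APCs. It was likewise higher in DPP4_pos than in DPP4_neg APCs, by 0.49 ± 0.04 with isoproterenol and 0.62 ± 0.04 with vehicle. Related loci share 18.9% of the 50-base stretches of Gstm1 and 5.66% of those of Gstm2.

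The 4 enzymes that remove peroxide and superoxide directly had log2 changes between -0.89 and 0.21. In DPP4_pos APCs 1 was higher and 2 lower (0 and 4 with quantile normalization), and in DPP4_neg APCs 2 were higher and 1 lower (0 and 1 with quantile normalization). Of all tested genes, 39.4% were higher and 43.3% lower in DPP4_pos APCs, and 32.1% and 33.6% in DPP4_neg APCs. With 4 genes, these counts cannot be told from those shares. Gpx1, the cytosolic glutathione peroxidase, fell in both populations and was lower in DPP4_pos than in DPP4_neg APCs under both treatments. Gpx1 (chromosome 9, 108339080 to 108340342, plus strand) had 655, 702, 585 and 590.0 normalized counts in DPP4_pos isoproterenol libraries, against 1216, 1135, 1171 and 1157 in DPP4_pos vehicle libraries. In DPP4_neg APCs, Gpx1 had 2010.0, 2311, 2027 and 2092 with isoproterenol, against 2561, 2454, 2502 and 2673 with vehicle. The 4 groups did not overlap. The log2 change was -0.89 ± 0.05 (1.85-fold lower, adjusted p = 1.2e-12) in DPP4_pos and -0.27 ± 0.05 (1.21-fold lower, adjusted p = 0.000141) in DPP4_neg APCs, and DPP4_pos was below DPP4_neg by 1.74 ± 0.05 with isoproterenol and 1.12 ± 0.05 with vehicle. Cat, catalase, fell by 0.26 ± 0.05 in DPP4_pos APCs and had 0.089 (95% interval -0.009 to 0.19, adjusted p = 0.104) in DPP4_neg APCs. Sod1, the copper-zinc superoxide dismutase, rose by 0.21 ± 0.05 in DPP4_pos and 0.20 ± 0.05 in DPP4_neg APCs, with the DPP4_pos sign turning to -0.12 under quantile normalization. Gpx4, which reduces lipid peroxides in membranes, had 0.087 ± 0.05 (adjusted p = 0.138) in DPP4_pos and 0.17 ± 0.05 (adjusted p = 0.00868) in DPP4_neg APCs, and the pseudogene Gpx4-ps2 shares 34.7% of its 50-base stretches. The DPP4_neg calls of Gpx4 and Sod1 ended with quantile normalization (0.11, adjusted p = 0.0817 for Gpx4, and 0.11, adjusted p = 0.0593 for Sod1).

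Both export pumps rose in both populations, where 39.4% of all tested genes rose in DPP4_pos and 32.1% in DPP4_neg APCs. Abcc1, or MRP1, exports glutathione and glutathione conjugates. Abcc1 (chromosome 16, 14361453 to 14474878, plus strand) had 14127, 13222, 14051 and 13293 normalized counts in DPP4_pos isoproterenol libraries, against 2669.9, 2602, 2519.7 and 2562 in DPP4_pos vehicle libraries. In DPP4_neg APCs, Abcc1 had 7058, 6747, 7083 and 6959 with isoproterenol, against 2994, 2722, 2666 and 2880.4 with vehicle. Vehicle levels overlapped between the populations and isoproterenol levels did not, with log2 changes of 2.40 ± 0.04 (5.28-fold) in DPP4_pos and 1.31 ± 0.04 (2.47-fold) in DPP4_neg APCs. Abcc4, or MRP4, also carries cyclic nucleotides such as cAMP out of cells. Abcc4 (chromosome 14, 118482692 to 118707856, minus strand) had 1742, 1765, 1742 and 1601 normalized counts in DPP4_pos isoproterenol libraries, against 472, 500.1, 470.3 and 498 in DPP4_pos vehicle libraries. In DPP4_neg APCs, Abcc4 had 1553, 1474, 1622 and 1607 with isoproterenol, against 332, 318, 341 and 309 with vehicle. It rose by 1.82 ± 0.05 (3.52-fold) in DPP4_pos and 2.26 ± 0.05 (4.80-fold) in DPP4_neg APCs, so that its response was smaller in DPP4_pos APCs, by 0.45 ± 0.07 (adjusted p = 4.1e-06).

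**Figure D3:**
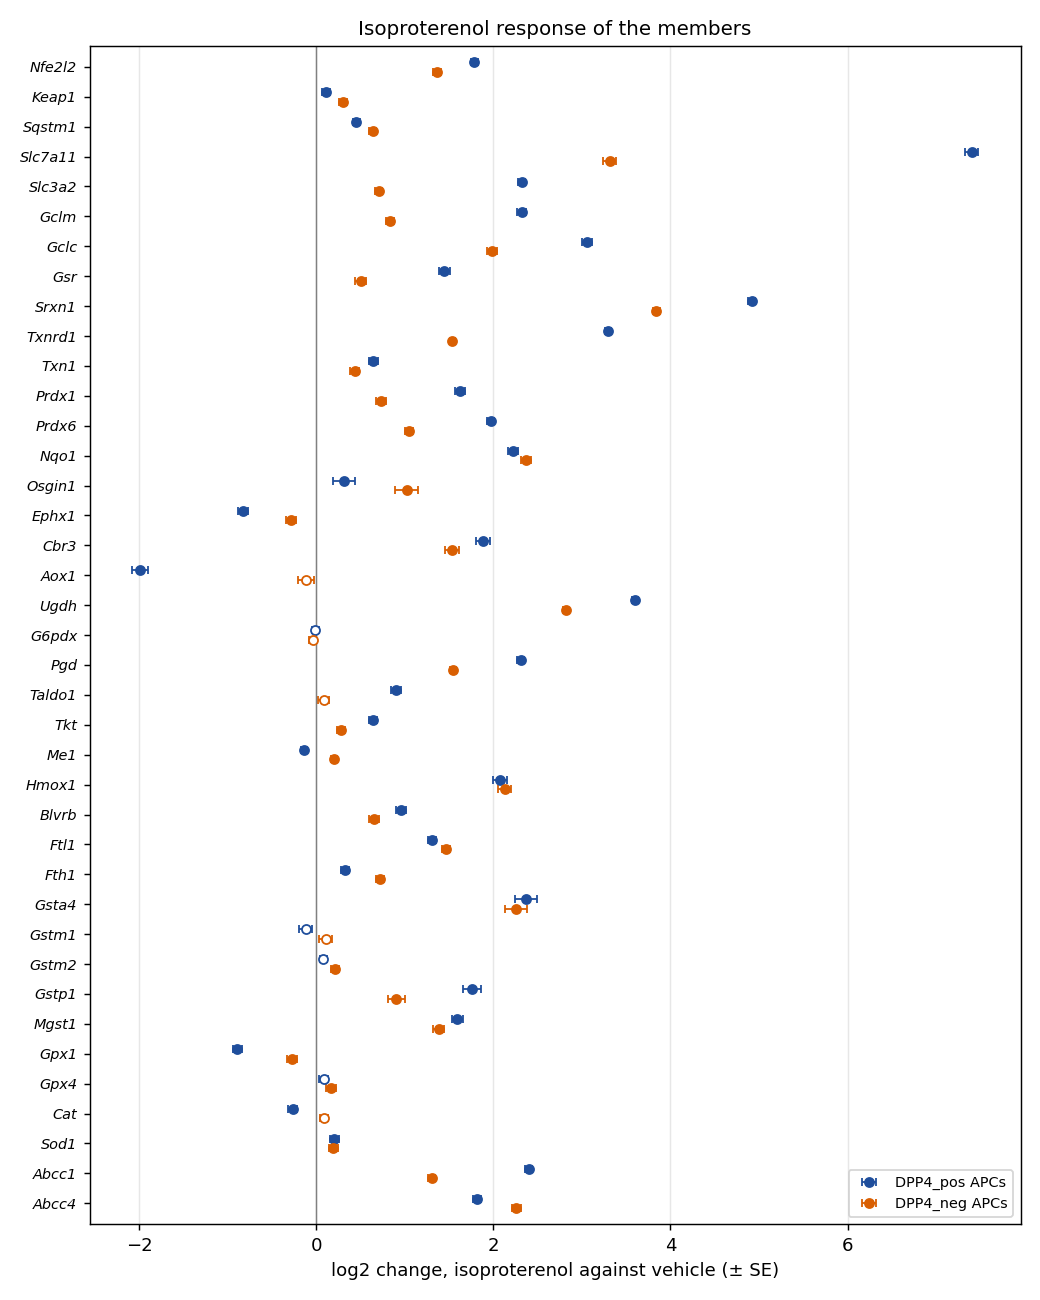
Log2 change with isoproterenol against vehicle (± SE) of each member in DPP4_pos and DPP4_neg APCs, with filled points for adjusted p under 0.05. Most points lie to the right of 0, up to 7.40 for Slc7a11 in DPP4_pos APCs, and Aox1, Ephx1 and Gpx1 lie to the left in DPP4_pos APCs.

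The size of the response differed between the populations for 32 of the 39 members by the interaction term of the fit, and for 62.6% of all tested genes. It was more positive in DPP4_pos APCs for 20 members, where 31.6% of all tested genes were, and more negative for 12, where 31.0% of all were. The median difference was 0.21, beside -0.022 over all genes. With quantile normalization the split was 14 more positive and 19 more negative, and the median was -0.13, so the count of members that responded more in DPP4_pos APCs depends on the scaling. All 5 genes of glutathione supply and all 5 of the thioredoxin and peroxiredoxin system were among the 20, together with Ugdh, Cbr3, Pgd, Taldo1, Tkt, Blvrb, Gstp1, Mgst1, Abcc1 and Nfe2l2, of which Txn1 (-0.13) and Mgst1 (-0.27) changed sign with quantile normalization. The calls of Nfe2l2, Blvrb (0.076), Cbr3 (0.13) and Tkt (0.049) ended with it, and those of Txn1 (0.16) and Mgst1 (0.16) ended with TMM scaling. The largest were Slc7a11 (4.09 ± 0.10), Txnrd1 (1.76 ± 0.05), Slc3a2 (1.62 ± 0.06) and Gclm (1.48 ± 0.07). The 12 with a more negative response were Keap1, Sqstm1, Osgin1, Ephx1, Aox1, Me1, Ftl1, Fth1, Gstm1, Gpx1, Cat and Abcc4. Among them, the calls of Ftl1 and Gstm1 ended without the filter on low counts (adjusted p = 0.0604 and 0.0774). They also ended when any of 9 single libraries was left out for Ftl1 (-0.157 to -0.122) or any of 10 for Gstm1 (-0.236 to -0.138). Mgst1 is among the 20 with a more positive response. Its call ended without the filter (adjusted p = 0.0614) and when any of 7 single libraries was left out (0.161 to 0.199). No difference was called for Nqo1, G6pdx, Hmox1, Gsta4, Gstm2, Gpx4 or Sod1. With quantile normalization all of these but Gsta4 were called as more negative in DPP4_pos APCs, among them G6pdx (-0.31), Gpx4 (-0.30), Sod1 (-0.24) and Gstm2 (-0.40). Gstm2 was also called with TMM scaling (-0.18), in edgeR (-0.18), in DESeq2 (-0.13, adjusted p = 0.0492), with the replicate block (-0.13) and when any 1 of 6 libraries was left out (-0.155 to -0.143). These differences use the same vehicle libraries as the comparison of the vehicle groups, so the 2 sets of values are not independent.

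Between the populations, members are grouped below by their calls under both treatments. The share of all tested genes in each such joint class was not counted, so no class is shown to be a trait of the set. Under isoproterenol, DPP4_pos APCs were higher than DPP4_neg APCs in 26 members, where 37.4% of all genes were higher, and lower in 9, where 37.0% were lower (74.4% in all). Under vehicle they were higher in 20, where 31.6% of all genes were, and lower in 13, where 35.0% were (66.6% in all). The libraries of the populations did not overlap for 31 members under isoproterenol (63.9% of all genes; DPP4_pos above for 24, 32.9% of all genes) and for 34 under vehicle (67.3% of all genes; DPP4_pos above for 21, 32.1% of all genes). The median difference of the members was 0.67 under isoproterenol and 0.15 under vehicle, beside -0.004 and -0.010 over all genes. With quantile normalization 22 members were higher and 11 lower under isoproterenol, with a median of 0.36, beside -0.031 over all genes. Under vehicle 21 were then higher and 13 lower, with a median of 0.21, beside -0.035 over all genes. A group of 16 members was higher in DPP4_pos APCs under both treatments: Abcc4, Blvrb, Cbr3, Fth1, Gclc, Gsta4, Gstm1, Gstm2, Hmox1, Mgst1, Nfe2l2, Nqo1, Prdx1, Prdx6, Srxn1 and Ugdh, of which Nqo1 under isoproterenol was not called with quantile normalization (0.062, adjusted p = 0.351). Abcc4 under isoproterenol turned to -0.060 with quantile normalization and was not called with TMM scaling (0.093, adjusted p = 0.0697) or without DPP4_neg isoproterenol replicate 2 (0.103). Another 8, Abcc1, Gclm, Gsr, Slc3a2, Slc7a11, Taldo1, Tkt and Txnrd1, were higher in DPP4_pos APCs under isoproterenol and lower under vehicle, although under isoproterenol with quantile normalization Tkt turned to -0.091 and Taldo1 was not called (0.064, adjusted p = 0.351). Gpx1, Gpx4, Me1, Sod1 and Txn1 were lower in DPP4_pos APCs under both. Aox1 was lower in DPP4_pos APCs under isoproterenol, by 0.93 ± 0.09, and higher under vehicle, by 0.94 ± 0.09. Sqstm1, Keap1 and Osgin1 were higher in DPP4_pos APCs under vehicle and not called under isoproterenol, where Sqstm1 was lower with quantile normalization (-0.32, adjusted p = 1.02e-07). Gstp1 and Pgd were higher under isoproterenol and not called under vehicle. Cat, Ephx1 and Ftl1 were lower in DPP4_pos APCs under isoproterenol and not called under vehicle. The Ftl1 call ended when replicate 1 or 4 of the DPP4_pos or replicate 2 or 3 of the DPP4_neg isoproterenol group was left out (-0.105 to -0.078). The 6 largest vehicle differences were those of Gstm1, Slc7a11, Gpx1, Nfe2l2, Fth1 and Aox1.

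**Figure D4:**
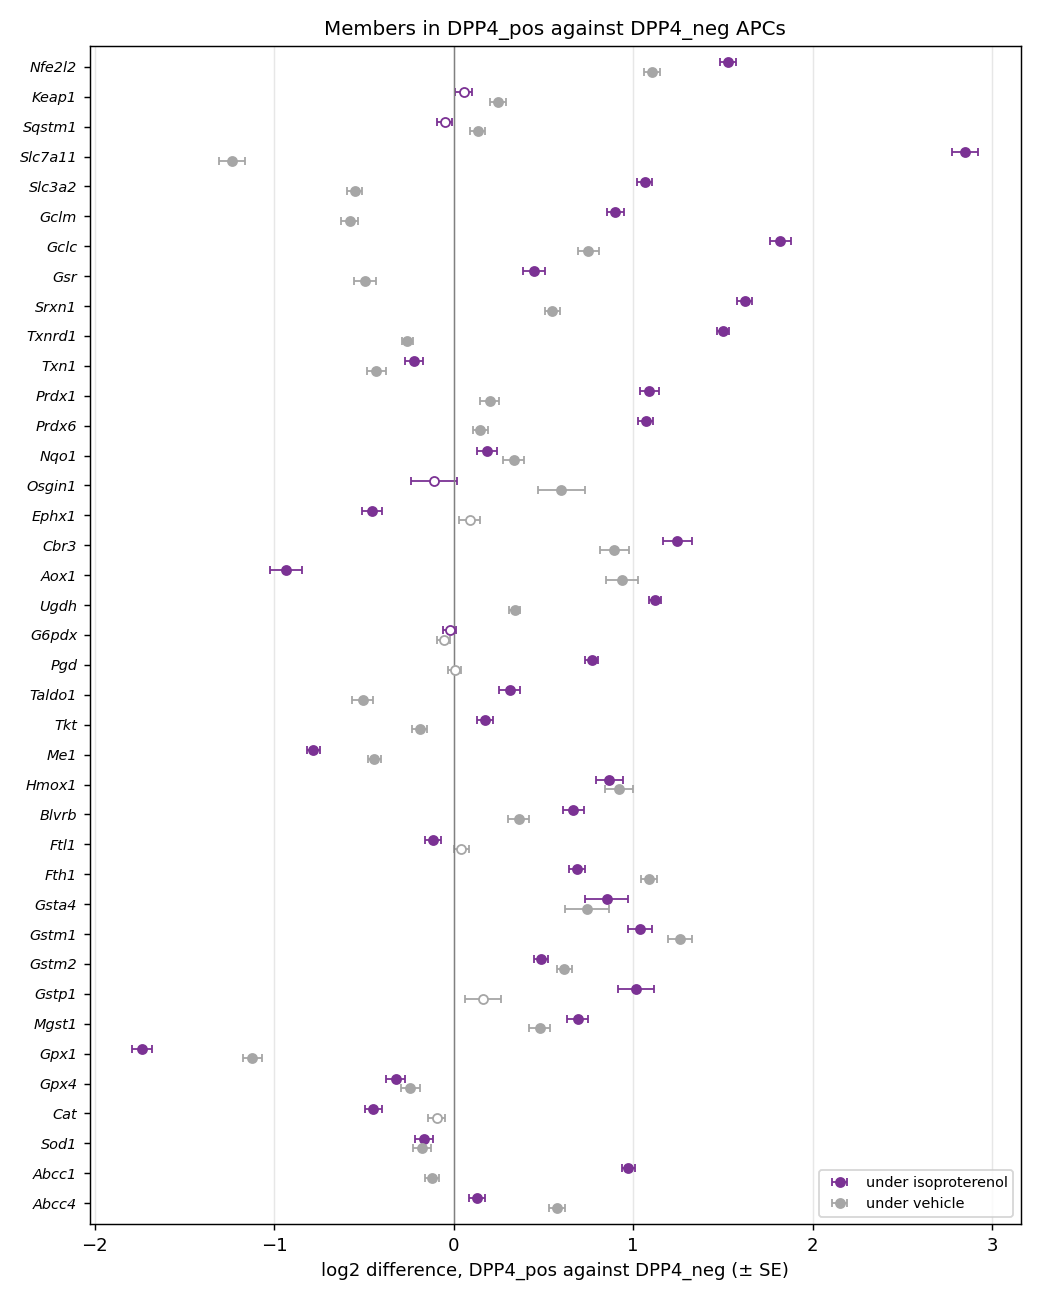
Log2 difference of DPP4_pos minus DPP4_neg APCs (± SE) for each member, under isoproterenol and under vehicle, with filled points for adjusted p under 0.05. Slc7a11 stands at 2.85 under isoproterenol and -1.24 under vehicle, Aox1 crosses 0 the other way, and Gpx1 lies left of 0 under both.

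Markers of other cell states differed between the populations as well. Of all tested genes, 37.4% were higher and 37.0% lower in DPP4_pos than in DPP4_neg APCs under isoproterenol. Under vehicle 31.6% were higher and 35.0% lower. With isoproterenol 43.3% fell in DPP4_pos and 33.6% in DPP4_neg APCs, and the response was more negative in DPP4_pos APCs for 31.0%. The 11 mural markers, all tested, summed to 8020.1 to 9744 normalized counts in DPP4_pos isoproterenol, 12508 to 14177 in DPP4_pos vehicle, 117273 to 126058 in DPP4_neg isoproterenol and 159281 to 176026 in DPP4_neg vehicle libraries, and 8 of the 11 were lower in DPP4_pos than in DPP4_neg APCs under isoproterenol and 7 under vehicle. The 8 adipocyte markers summed to 5041 to 5958 in DPP4_pos isoproterenol, 17670.0 to 20208 in DPP4_pos vehicle, 20959 to 25421 in DPP4_neg isoproterenol and 61123 to 70584 in DPP4_neg vehicle libraries, and all 7 tested were lower in DPP4_pos APCs under both treatments and lower with isoproterenol in both populations. The 10 endothelial markers summed to 1317 to 1440.4 in DPP4_pos isoproterenol, 1194 to 1259 in DPP4_pos vehicle, 243 to 311 in DPP4_neg isoproterenol and 214 to 251 in DPP4_neg vehicle libraries, and 6 of 7 tested were higher in DPP4_pos APCs under both treatments. Of the 20 interferon-stimulated genes, 17 were higher in DPP4_pos than in DPP4_neg APCs under isoproterenol and 20 under vehicle, and the response of 19 was more negative in DPP4_pos APCs. Lep, the adipocyte marker too low to be tested, was at 0 in every isoproterenol library of both populations, and no other marker of these lists was at 0 in every library of a group. Adipocytes express Me1 strongly, and Me1 was lower, like these markers, in DPP4_pos than in DPP4_neg APCs under both treatments, but with isoproterenol in DPP4_neg APCs Me1 rose while the markers fell. The part of these cell states in the members' differences was not tested.

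The partners and brakes of NRF2 form a list of 12 genes, in which 7 rose and 1 fell with isoproterenol in DPP4_pos APCs (8 and 4 with quantile normalization) and 5 rose and 5 fell in DPP4_neg APCs. Of all tested genes, 39.4% rose and 43.3% fell in DPP4_pos APCs, and 32.1% rose and 33.6% fell in DPP4_neg APCs. Bach1, the heme-regulated repressor that competes with NRF2 for its elements, averaged 6662 ± 381 normalized counts in DPP4_pos isoproterenol, 1291 ± 27.6 in DPP4_pos vehicle, 1844 ± 151 in DPP4_neg isoproterenol and 832 ± 43.5 in DPP4_neg vehicle libraries. It rose by 2.37 ± 0.05 (5.15-fold) in DPP4_pos and 1.14 ± 0.05 (2.21-fold) in DPP4_neg APCs. The small MAF genes, whose products pair with either NRF2 or BACH1, rose in DPP4_pos APCs by 1.93 ± 0.04 for Maff, 1.63 ± 0.06 for Mafg and 1.56 ± 0.05 for Mafk. In DPP4_neg APCs, Maff and Mafg rose by 0.68 ± 0.04 and 1.21 ± 0.06, and Mafk fell by 0.21 ± 0.05. Bach2, a related repressor, had -0.13 (adjusted p = 0.487) in DPP4_pos APCs and fell by 2.06 ± 0.18 in DPP4_neg APCs. Nfe2l3, a relative of NRF2 with few counts (at most 13.7 ± 3.11 in a group), fell by 1.05 ± 0.37 in DPP4_neg APCs. Cul3, the scaffold of the KEAP1 ligase, had 0.008 in DPP4_pos and -0.020 in DPP4_neg APCs, and neither passed.

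Slc7a11, Slc3a2 and Sqstm1 are also known targets of ATF4, the transcription factor of the integrated stress response, and the list of ATF4 targets behaved differently in the 2 populations. Of 25 tested, 20 were higher and 3 lower with isoproterenol in DPP4_pos APCs, with a median log2 change of 1.18, where 39.4% of all genes were higher and 43.3% lower. In DPP4_neg APCs 10 were higher and 12 lower, with a median of -0.026, where 32.1% of all genes were higher and 33.6% lower. The responses differed upward in DPP4_pos APCs for 21 of the 25 (31.6% of all genes) and downward for 2 (31.0% of all genes). Under vehicle 22 of the 25 (35.0% of all genes) were lower in DPP4_pos than in DPP4_neg APCs and 1, Atf3, was higher, with a median difference of -0.86. Atf4 itself averaged 3738 ± 30.9 normalized counts in DPP4_pos isoproterenol, 1431 ± 34.0 in DPP4_pos vehicle, 2789 ± 120.1 in DPP4_neg isoproterenol and 2256 ± 59.1 in DPP4_neg vehicle libraries, and rose by 1.38 ± 0.03 in DPP4_pos and 0.31 ± 0.03 in DPP4_neg APCs.

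Several genes of amino acid supply in that list rose at least 2-fold in DPP4_pos APCs. They were Asns, asparagine synthetase (1.29 ± 0.04), the serine synthesis enzymes Psat1 (1.29 ± 0.05) and Psph (1.22 ± 0.06), the folate enzymes Mthfd2 (2.19 ± 0.06) and Shmt2 (1.13 ± 0.05), Cth, which makes cysteine (1.66 ± 0.11), the cationic amino acid carrier Slc7a1 (2.002 ± 0.06), the neutral amino acid carrier Slc38a2 (1.18 ± 0.04) and the alanyl-tRNA synthetase Aars (1.14 ± 0.03). Phgdh, the first enzyme of serine synthesis, rose by 0.22 ± 0.05 in DPP4_pos and fell by 0.43 ± 0.05 in DPP4_neg APCs, and the folate enzyme Aldh1l2 had 0.15 (adjusted p = 0.0932) in DPP4_pos and fell by 0.34 ± 0.08 in DPP4_neg APCs. In DPP4_neg APCs, Asns, Psat1, Shmt2 and Slc7a1 fell, by 0.25 ± 0.04, 0.32 ± 0.05, 0.16 ± 0.05 and 0.65 ± 0.06, while Psph, Mthfd2 and Cth had -0.026, 0.077 and 0.077 and did not pass. Slc38a2 and Aars rose in DPP4_neg APCs by 0.59 ± 0.04 and 0.23 ± 0.03. The stress regulators Trib3 (1.22 ± 0.09) and Nupr1 (2.01 ± 0.09) rose in DPP4_pos and fell in DPP4_neg APCs, by 0.42 ± 0.09 and 0.56 ± 0.09. Ddit4, an inhibitor of mTOR, rose by 4.07 ± 0.07 in DPP4_pos and 2.93 ± 0.07 in DPP4_neg APCs. The transcription factors Atf3 and Cebpb rose by 2.75 ± 0.12 and 2.22 ± 0.03 in DPP4_pos APCs and by 2.39 ± 0.12 and 1.53 ± 0.03 in DPP4_neg APCs. Eif4ebp1, a brake on translation, fell by 0.20 ± 0.07 in DPP4_pos and by 1.06 ± 0.07 in DPP4_neg APCs.

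**Figure D5:**
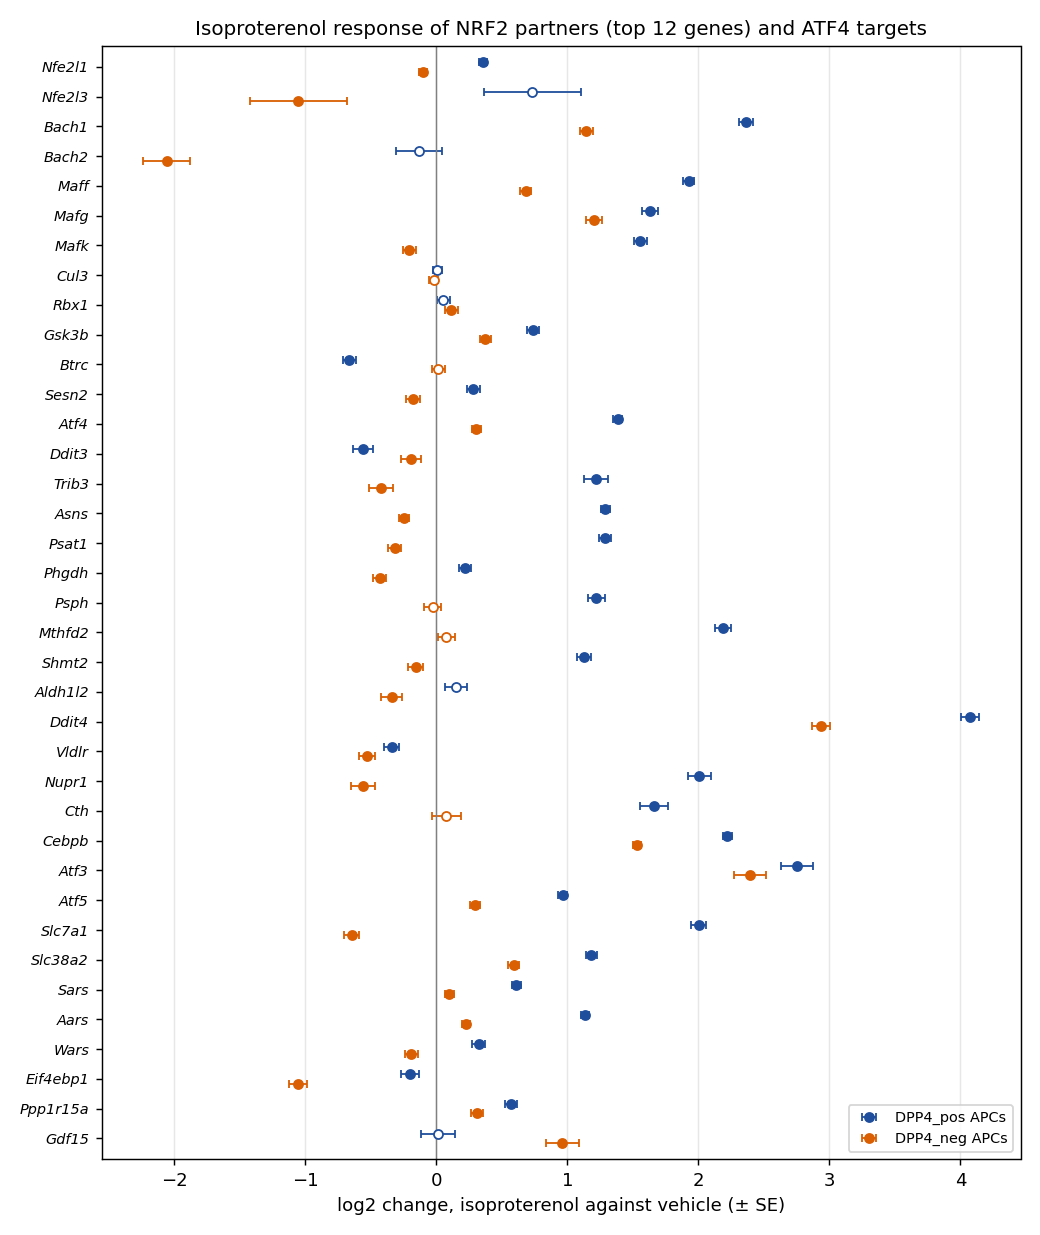
Log2 change with isoproterenol against vehicle (± SE) in DPP4_pos and DPP4_neg APCs for the 12 NRF2 partners and brakes (Nfe2l1 to Sesn2) and the 25 tested ATF4 and integrated stress response targets (Atf4 to Gdf15), with filled points for adjusted p under 0.05. In the lower part the DPP4_pos points lie mostly right of 0 and the DPP4_neg points scatter about it.

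The genes of a wider antioxidant and glutathione list were called lower more often than higher. The list also holds Txnip, which blocks thioredoxin, and the glutathione breakdown genes Chac1, Chac2, Ggt5, Ggt7 and Oplah. All of these were among the genes called lower in DPP4_pos APCs, so the counts give no direction for antioxidant defence. Of 56 tested genes of the 58 listed, 16 were higher and 34 lower with isoproterenol in DPP4_pos APCs, with a median of -0.32. In DPP4_neg APCs 18 were higher and 31 lower, with a median of -0.23. All genes also leaned lower, with 39.4% higher and 43.3% lower in DPP4_pos APCs and 32.1% and 33.6% in DPP4_neg APCs. The genes that rose at least 2-fold in both populations were Acsl4, which loads polyunsaturated fatty acids for phospholipids, Sod3, the extracellular superoxide dismutase, and Gsto1, an omega-class transferase. Acsl4 changed by 4.27 ± 0.05 in DPP4_pos and 3.21 ± 0.05 in DPP4_neg APCs. Sod3 and Gsto1 changed by 1.91 ± 0.05 and 2.37 ± 0.04 in DPP4_pos APCs and by 1.90 ± 0.05 and 1.51 ± 0.04 in DPP4_neg APCs. Sod2, the mitochondrial superoxide dismutase, averaged 10653 ± 190.5 normalized counts in DPP4_pos isoproterenol, 1812 ± 24.7 in DPP4_pos vehicle, 2696 ± 136 in DPP4_neg isoproterenol and 1673 ± 66.7 in DPP4_neg vehicle libraries, with changes of 2.56 ± 0.04 in DPP4_pos and 0.69 ± 0.04 in DPP4_neg APCs. Slc7a5, another partner of Slc3a2, rose by 1.99 ± 0.06 in DPP4_pos and fell by 0.31 ± 0.06 in DPP4_neg APCs. Prdx5 rose by 1.19 ± 0.05 in DPP4_pos and 0.49 ± 0.05 in DPP4_neg APCs, and Gch1, the entry enzyme of tetrahydrobiopterin synthesis, rose by 1.17 ± 0.15 in DPP4_pos and 0.82 ± 0.15 in DPP4_neg APCs.

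Txnip, which binds and blocks thioredoxin, had the largest fall, to 825 ± 27.4 normalized counts in DPP4_pos isoproterenol, against 13175 ± 734 in DPP4_pos vehicle libraries, and to 728 ± 66.7 in DPP4_neg isoproterenol, against 4065 ± 245 in DPP4_neg vehicle libraries. Its log2 change was -3.99 ± 0.06 in DPP4_pos and -2.48 ± 0.06 in DPP4_neg APCs. NADPH-producing enzymes outside the member set fell, Idh1 by 2.56 ± 0.04, Idh2 by 1.37 ± 0.04 and the mitochondrial transhydrogenase Nnt by 1.11 ± 0.04 in DPP4_pos APCs, and by 1.61 ± 0.04, 0.54 ± 0.04 and 0.43 ± 0.04 in DPP4_neg APCs. Among genes of glutathione breakdown, Oplah fell by 1.97 ± 0.08 in DPP4_pos and 1.73 ± 0.08 in DPP4_neg APCs, and Ggt5 by 0.99 ± 0.06 and 0.41 ± 0.06. Chac1 had -0.34 (adjusted p = 0.0326) in DPP4_pos APCs and fell by 1.46 ± 0.14 in DPP4_neg APCs. The DPP4_pos call of Chac1 ended in DESeq2 (-0.32, adjusted p = 0.18), in edgeR (-0.36, adjusted p = 0.0947) and without the filter (adjusted p = 0.0574), and its sign turned with quantile normalization (0.15). Chac2 and Ggt7 fell by 0.64 ± 0.10 and 0.23 ± 0.07 in DPP4_pos APCs (Ggt7 -0.10, adjusted p = 0.191, with quantile normalization) and had 0.061 and 0.077 in DPP4_neg APCs, where neither passed. Unlike Gsto1, some transferases fell at least 2-fold in DPP4_pos APCs, namely Gstt1 (-1.02 ± 0.06), Gstt2 (-2.20 ± 0.14), Gstz1 (-1.68 ± 0.09), Mgst2 (-1.18 ± 0.23) and Mgst3 (-1.14 ± 0.09). In DPP4_neg APCs they fell by 0.60 ± 0.06, 1.18 ± 0.14, 1.08 ± 0.09, 0.74 ± 0.23 and 1.10 ± 0.09. The sestrin Sesn1, the alcohol dehydrogenase Adh7 and the pump Abcc3 fell at least 2-fold in DPP4_pos APCs (-1.83 ± 0.06, -2.48 ± 0.12 and -1.605 ± 0.12) and by 0.68 ± 0.06, 0.69 ± 0.12 and 0.51 ± 0.12 in DPP4_neg APCs. Txnrd3, a thioredoxin reductase, Slc1a5, a glutamine carrier, and Slc6a9, a glycine carrier, fell at least 2-fold in DPP4_neg APCs (-1.07 ± 0.10, -1.08 ± 0.04 and -1.07 ± 0.08). In DPP4_pos APCs, Txnrd3 and Slc1a5 fell by 0.25 ± 0.10 and 0.36 ± 0.04 (Txnrd3 -0.074, adjusted p = 0.485, with quantile normalization), and Slc6a9 had -0.002 and did not pass.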

How the data were processed

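The 16 libraries were made from 500 ng of total RNA each with the NEBNext Ultra II RNA kit, per the labels' protocols, and strand is not stated. Software listed by the submitters' processing notes comprises DESeq2 1.6.3, featureCounts 1.4.6, HISAT2 2.0.1 and Trim Galore 0.4.1, and the builds listed are GRCm38 and mm10, with settings and annotation not given in the sources used here. Per its header and values, the authors deposited 1 table of signal values, in which each library's reads per gene are scaled by that library's size factor (normalized counts). Dividing by each library's step gave whole reads for 100.0% of 280334 values above 0 (within 0.001). Of 27179 entries, 958 without a symbol held 0.0926% of normalized counts.

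Genes at 10 or more in 4 or more libraries (14005) were tested with limma 3.58.1 (trend, R 4.3.3) on log2(value + 1), which understates changes of low genes, in a fit of 4 group means over all 16 libraries, with Benjamini-Hochberg adjustment over all tested genes; intervals are 95%. The code was tested on simulated data. Alternatives were pseudocounts of 0.5 and 5, no filter, a filter at 50, TMM, quantile normalization, edgeR 4.0.16 and DESeq2 1.42.0 on the whole reads, a replicate block and leaving out each library. Within a group, libraries correlated at 0.986 to 0.995 across genes, and each pair differed beyond counting noise (chi-square per degree of freedom 1.60 to 9.08).

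Positions and promoters are from RefSeq (GRCm38.p6); 25275 entries matched by Entrez ID. Exon lengths, overlaps and shared 50-base stretches are from GENCODE M21 and were examined for members. Per-library values are given for the 12 members with the largest isoproterenol response, for Nfe2l2, Keap1, Hmox1 and Sqstm1, and for the 6 largest vehicle differences. Of other lists, genes changed at least 2-fold are named, plus Atf4, Bach1, Maff, Mafg and Mafk, and Cul3 was added after its values were seen. Phgdh, Aldh1l2, Ggt5, Chac2, Ggt7 and some cell type markers are named outside this rule. Promoters are printed for the first 6 by response where RefSeq had one. The members and lists were chosen with earlier results of these data known.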

Additional observations from a re-analysis of the deposited data

Results flagged for a closer look

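In 11 of the 156 combinations of a member and a group, 1 library lay far from the other 3, and chance alone gives about 1 such case in 20 groups. Above the other 3 were Nfe2l2 in DPP4_pos vehicle replicate 1 (3644.06 normalized counts), Slc3a2 in DPP4_pos vehicle replicate 3 (1667.68), Slc3a2 (4241.31), Srxn1 (15333.9) and Ephx1 (2499.12) in DPP4_neg isoproterenol replicate 2, Txnrd1 in DPP4_neg isoproterenol replicate 3 (9847.74), Slc7a11 in DPP4_neg vehicle replicate 1 (231.046), and Osgin1 (85.2559) and Hmox1 (1881.04) in DPP4_neg vehicle replicate 4. Below the other 3 were Keap1 (875.673) and Abcc4 (1601.02) in DPP4_pos isoproterenol replicate 4.

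The isoproterenol response differed between the populations for 32 members by the interaction term, given as the log2 response of DPP4_pos minus that of DPP4_neg APCs. The difference was positive for Slc7a11 (4.086), Txnrd1 (1.7587), Slc3a2 (1.6161), Gclm (1.4808), Abcc1 (1.0935), Srxn1 (1.0743), Gclc (1.071), Gsr (0.9436), Prdx6 (0.9221), Prdx1 (0.89), Gstp1 (0.8523), Taldo1 (0.819), Ugdh (0.7834), Pgd (0.7635), Nfe2l2 (0.4221), Tkt (0.3634), Cbr3 (0.3513), Blvrb (0.3044), Mgst1 (0.2118) and Txn1 (0.2094). It was negative for Aox1 (-1.8737), Osgin1 (-0.7085), Gpx1 (-0.6157), Ephx1 (-0.5453), Abcc4 (-0.4463), Fth1 (-0.3999), Cat (-0.3529), Me1 (-0.339), Gstm1 (-0.2258), Keap1 (-0.1909), Sqstm1 (-0.1848) and Ftl1 (-0.1588). Of all tested genes, 62.6% differed by the same term.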

How the results depend on the processing

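Quantile normalization, which forces the libraries to one distribution, moved the results most. Members called lower were then 10 in the DPP4_pos response and 19 in the difference of the responses. Under it the DPP4_pos response changed sign for Gpx4 (-0.187), Gstm2 (-0.247), Keap1 (-0.054), Sod1 (-0.124) and Sqstm1 (-0.047). DPP4_pos minus DPP4_neg under isoproterenol changed sign for Abcc4 (-0.06), Keap1 (-0.072), Osgin1 (0.041) and Tkt (-0.091), and G6pdx under vehicle (0.039). The difference of the responses changed sign for G6pdx (-0.306), Mgst1 (-0.27), Sod1 (-0.237) and Txn1 (-0.132). That difference was also negative for G6pdx (-0.019) and Sod1 (-0.04) with TMM, and in edgeR (-0.022 for G6pdx and -0.041 for Sod1). No scaling moved the median of all genes by over 0.1. The total of normalized counts, however, was 1.84e+07 to 1.86e+07 in DPP4_pos isoproterenol and 1.52e+07 to 1.54e+07 in DPP4_pos vehicle libraries. In DPP4_neg APCs it was 1.61e+07 to 1.62e+07 with isoproterenol and 1.599e+07 to 1.604e+07 with vehicle. The part of these totals in the shifts, like any other cause, was not tested.

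Leaving out each of the 16 libraries gave 28 to 31 members higher and 5 to 6 lower in the DPP4_pos response, and 32 to 33 higher and 2 lower in the DPP4_neg response. DPP4_pos against DPP4_neg gave 25 to 26 higher and 8 to 9 lower under isoproterenol, and 20 higher and 13 to 14 lower under vehicle. The difference of the responses gave 19 to 20 and 10 to 13. Values near 0 changed sign for G6pdx in DPP4_pos APCs (-0.037 to 0.006) and between the isoproterenol groups (-0.052 to 0.004), for Pgd between the vehicle groups (-0.007 to 0.017), and for the response differences of Hmox1 (-0.136 to 0.017) and Sod1 (-0.038 to 0.049). Of 4875 recomputed values, 4750 kept direction and call.

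Libraries with the same replicate number did not deviate together (r -0.231 to 0.131 over 24 pairs, 6 of 16 libraries closest to their own number). A fit with a replicate block called 31 members higher and 5 lower in DPP4_pos and 33 and 2 in DPP4_neg APCs, 26 and 9 between the populations under isoproterenol, 20 and 14 under vehicle, and 20 and 13 for the difference of the responses. At the depth reached, no member fell below 41.9 normalized counts in a library.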
